A study of Mus musculus with 2 samples.

Results

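In RAW264.7 cells treated with IR-61, 147 genes had deposited values at least 2-fold lower than in vehicle-treated cells while still well above background on both arrays. This number does not count genes with certain, mostly inflammatory, symbols, which were left out. The 147 genes were selected on that difference. On the deposited log2 values, with the probe of the highest mean for each gene, a gene had to reach 6 on both arrays, lie well above background on both and have a difference (IR-61 minus vehicle) of −1 or less. Cytokines, chemokines, Toll-like receptors, the NF-κB, interferon regulatory factor and Stat families, C-type lectins, Dusp, Maf, Egr, Fos, Jun and Bcl2 genes, all symbols that start with Cd (CD antigens, but also genes such as *Cdc42ep2*) and 9 single genes such as *Acod1* and *Icam1* were left out by symbol. Of 20659 named genes, 13908 passed the limits on level, and 189 of these, or 1.36%, were lower by 2-fold or more, against 190, or 1.37%, that were higher. The selection by symbol removed 42 of the 189, but other genes of inflammatory signalling, such as *Bcl3*, *Nod2* and *Ripk2*, stayed in. The 147 genes are 1.09% of the 13507 measured genes whose symbols were not left out.

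RAW264.7 is an established macrophage line from a BALB/c male mouse, raised from a tumour induced by Abelson leukemia virus. IR-61 is a heptamethine cyanine dye, a near-infrared fluorescent small molecule that the study describes as targeting mitochondria. In this experiment 1 culture received vehicle control and 1 received 10 μM IR-61, both for 24 h in medium with serum, and each RNA was read on a separate Agilent array with a single dye. Replicate error could not be estimated from 1 array for each treatment. No test was therefore run, and each difference below compares these 2 cultures only. All 15 macrophage markers examined were well above background on both arrays. *Adgre1* and *Aif1* had differences of 1.06 and 1.04, and *Spi1*, which encodes the macrophage factor PU.1, had a difference of −0.80. Fewer cells expressing a gene and less RNA per cell cannot be told apart in such samples.

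In macrophages, NF-κB factors switch on inflammatory genes together with feedback inhibitors of the same pathway. The integrated stress response raises genes for amino acid supply through the factor ATF4 when amino acids run short or proteins misfold. Serum response factor, encoded by *Srf*, binds a short A/T-rich element called the CArG box and drives genes of the actin cytoskeleton.

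The 147 differences lay between −3.69 and −1.002, with a median of −1.24, equal to a 2.36-fold lower deposited value. Across all measured genes the median difference was 0.05 with an SD of 0.43 between genes. The falls were mostly modest, since 38 members lay between −1.1 and −1 and 24 were lower by 3-fold or more. Their vehicle values ran from 7.17 to 15.93 with a median of 10.67, close to the median of 10.46 over all measured genes, and their IR-61 values from 6.004 to 13.92. The spread between spots of the same probe gave an expected SD of each difference of 0.08 to 0.32. As a description, 56 members lay beyond −1 by over 2 of these SDs. This spread covers noise within an array and not the difference between cultures.

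**Figure D1:**
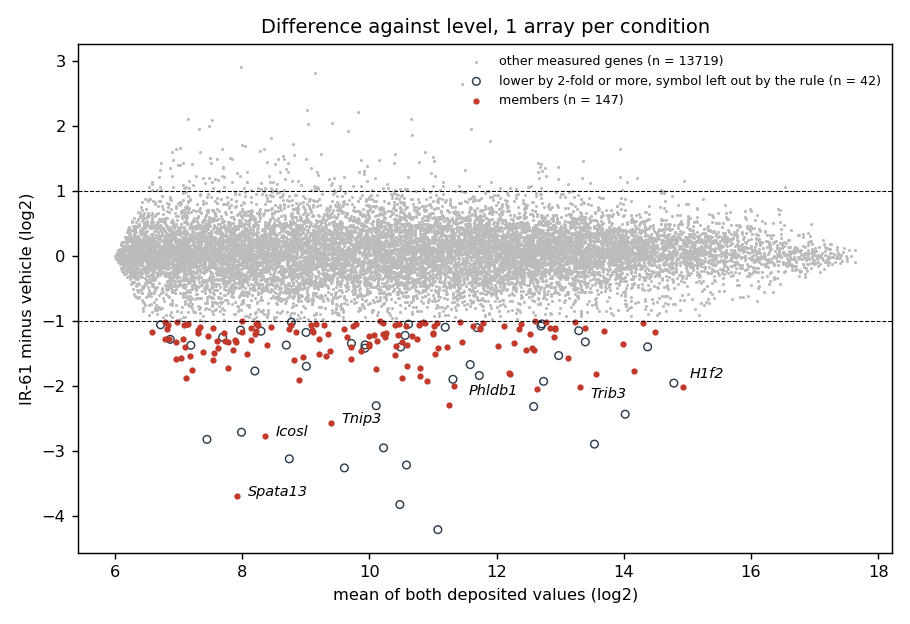
Each point is a gene measured on both arrays, with the mean of its vehicle and IR-61 values (log2) on the horizontal axis and the difference, IR-61 minus vehicle (log2), on the vertical axis. Red points are the 147 members, open circles the 42 lower genes left out by symbol, grey points all other measured genes, and dashed lines mark 2-fold. Members lie from dim to bright genes, and *Spata13*, at −3.69, stands below the rest of them.

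At the limit of −1 the members closest to it were *Nr4a1*, *Prkcd* and *Utp14a*, at −1.005, −1.004 and −1.002, and the closest genes outside were *Cacnb4*, *Zdhhc14* and *Sec63*, at −0.9975, −0.996 and −0.994. At the level of 6, *Dcbld2* and *Spata13* were just inside with IR-61 values of 6.004 and 6.07, and *Hdc* and *Acvr1b* just outside with 5.99 and 5.98. A further 87 genes met every other condition with a value under 6.

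*Spata13*, an exchange factor that activates small GTPases, had a value of 9.76 with vehicle and 6.07 with IR-61, 12.9-fold lower on the deposited scale. Its difference of −3.69 was the largest fall among the members, and it ended close to the level of 6. *Icosl*, the ligand of the T cell costimulator ICOS, went from 9.75 to 6.98, 6.81-fold lower. *Tnip3*, which binds the ubiquitin-editing enzyme A20 and restrains NF-κB signalling, went from 10.68 to 8.11, 5.92-fold lower. These 3 genes were of middle level with vehicle. Some of the members below them in order were brighter. *Phldb1*, a protein that anchors microtubules near focal adhesions, had values of 13.66 and 11.61. *Trib3*, a pseudokinase induced by amino acid shortage, had 14.31 and 12.30, and the linker histone gene *H1f2* had 15.93 and 13.92, the highest level of any member on both arrays. Each of these 3 was lower by 4.02-fold to 4.15-fold.

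**Figure D2:**
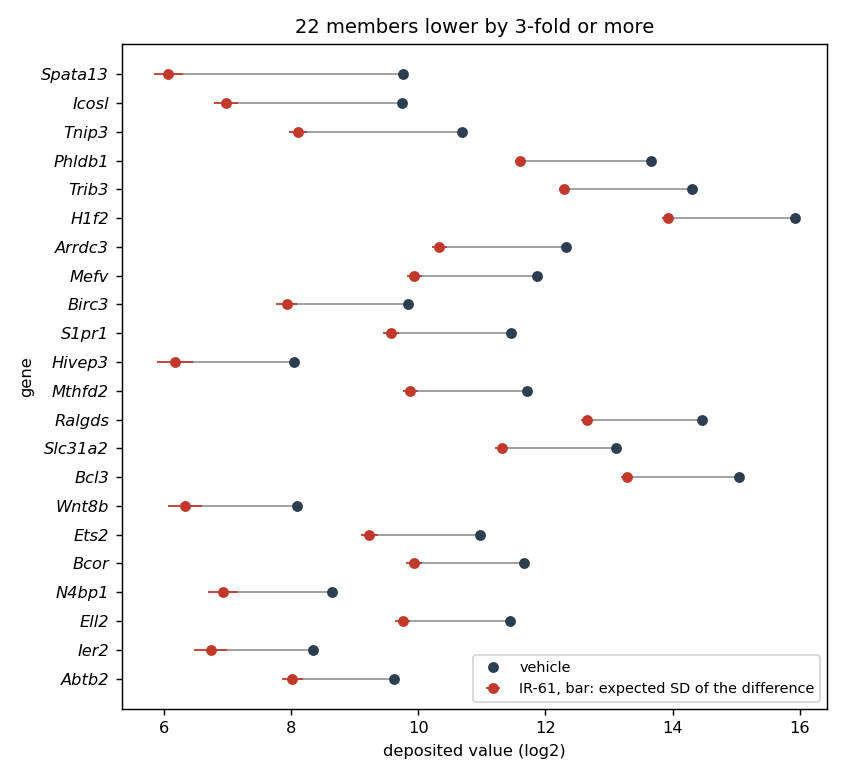
Deposited values (log2) of 22 of the 24 members lower by 3-fold or more, vehicle in dark and IR-61 in red, ordered by the size of the fall, with 1 array per condition. The bar on each IR-61 point is the SD that the noise between spots gives for the difference. The gap between both points is widest for *Spata13*, and the IR-61 values run from 6.07 for *Spata13* to 13.92 for *H1f2*.

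By their textbook roles, assigned once the members were known, the members formed 13 groups of 3 to 19 genes. The median differences of the groups lay close together, between −1.48 for small GTPases and their regulators and −1.12 for genes of other or unassigned role. The members lower by 3-fold or more came from 11 of the 13 groups.

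**Figure D3:**
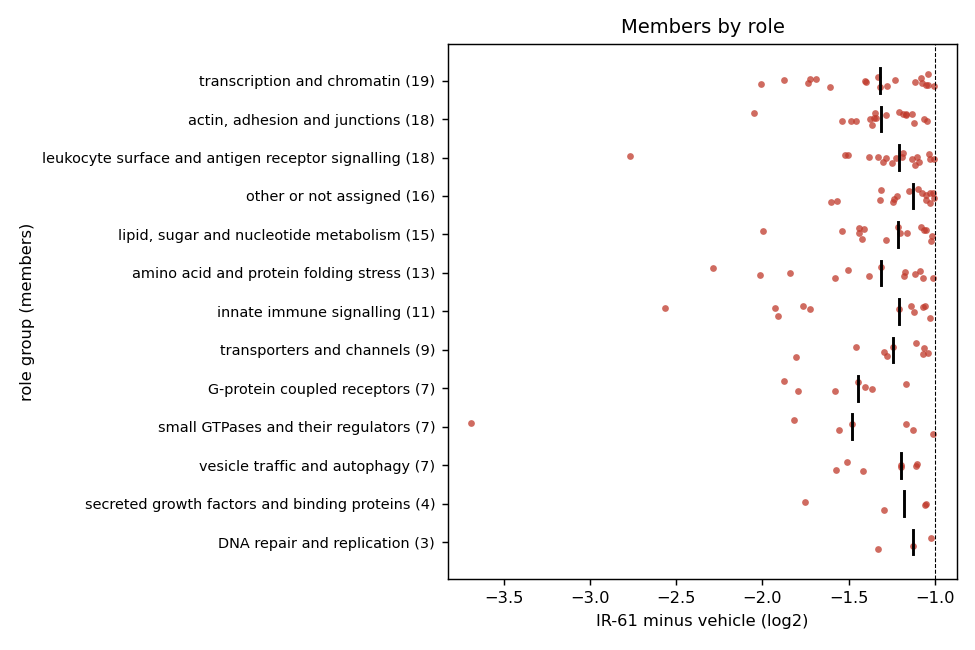
Each point is 1 member, placed by its difference (IR-61 minus vehicle, log2) in the row of its role group, with the number of members in brackets. Black bars are medians, which lie between −1.48 and −1.12, and the dashed line is the limit of −1 that chose the members.

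Innate immune signalling held 11 members with a median of −1.21. Toll-like receptors, C-type lectins and symbols that start with Cd were left out, so the group does not show how receptors fared. Beside *Tnip3*, *Mefv*, the gene of the inflammasome sensor pyrin, had values of 11.87 and 9.94. *Birc3*, the ubiquitin ligase cIAP2, had 9.84 and 7.93, and *Bcl3*, an atypical IκB protein that acts with NF-κB subunits in the nucleus, had 15.04 and 13.28. Their differences were −1.93, −1.91 and −1.76. The remaining members were *N4bp1*, *Neurl3*, *Nod2*, *Cflar*, *Ikbke*, *Khnyn* and *Ripk2*, between −1.72 and −1.03. *Nod2*, a sensor of bacterial muramyl dipeptide, and *Ripk2*, the kinase it signals through, were both members, at −1.14 and −1.03. The other genes of that route were not lower to this extent. *Nod1* was at 0.15, *Xiap* at 0.77, *Tab2* at −0.44 and the kinase *Map3k7* at 0.29. Within families the same unevenness was seen. *Tnip1* and *Tnip2* were at −0.67 and −0.08 beside *Tnip3*, and *Birc2*, the nearest relative of *Birc3*, was at −0.47. Among the IκB kinases, *Ikbke* was at −1.07 while *Chuk*, *Ikbkb*, *Ikbkg* and *Tbk1* lay between −0.41 and 0.52. These relatives were picked around the members after their values were seen. Being measured but not members, they had to lie above −1 by the rule.

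The wider set of NF-κB-responsive genes whose symbols were not left out was chosen with earlier results of these data known. It held 62 measured genes, of which 12, or 19.4%, were lower by 2-fold or more. That share was 1.09% over the measured genes whose symbols were not left out, and 1.36% over all measured genes. None of the 62 was higher by 2-fold or more. All 12 are members, namely *Tnip3*, *Birc3*, *Bcl3*, *Ehd1*, *Marcksl1*, *Rab20*, *Slc2a6*, *Phlda1*, *Gem*, *Nod2*, *Cflar* and *Ripk2*. The difference was below 0 in 47 of the 62, with a median of −0.41 against 0.05 over all measured genes. This median was 0.05 without scaling between the arrays, where the median of all measured genes was 0.57. The genes next in order were *Zc3h12a*, an RNase that degrades cytokine transcripts, at −0.98 and *Inhba* at −0.96. Of the interferon-responsive genes, 1 of 43, or 2.33%, was lower and 1 higher by 2-fold or more, with a median of −0.01.

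For part of the members the bases around the transcription start could be read. RefSeq windows of assembly GRCm38.p6, from 250 bases before the start to 50 after it, existed for 113 of the 147 members and for 11125 measured genes, and both strands were searched. A match is a run of letters only, and no binding was measured. The kappaB consensus, the site form of NF-κB dimers, matched in 22 of the 113 members, or 19.5%, and in 11.8% of the measured genes. Of the NF-κB-responsive members named above, only *Tnip3* and *Bcl3* were among the 22. The others with a match, such as *Aldh18a1*, *Kcnn4* and *Vcl*, are not on that list. In *Tnip3* it began 54 bases before the start, in *Neurl3*, the gene of a ubiquitin ligase, 110 bases before, and in *Slc6a12*, the gene of a betaine transporter, 133 bases before. In *Bcl3* it lay after the start and is not printed. The stretches of 3 members are shown for the position of the consensus, which is in capitals.

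*Tnip3*, chr6:65590319-65590378, plus strand: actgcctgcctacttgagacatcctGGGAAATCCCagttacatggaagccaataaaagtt
*Neurl3*, chr1:36273501-36273560, minus strand: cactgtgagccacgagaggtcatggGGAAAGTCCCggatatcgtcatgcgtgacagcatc
*Slc6a12*, chr6:121342416-121342475, plus strand: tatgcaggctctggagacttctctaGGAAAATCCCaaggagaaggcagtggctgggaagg

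Amino acid supply and protein folding stress held 13 members with a median of −1.31. *Trib3* led those described here. *Mthfd2*, a mitochondrial enzyme of folate metabolism, had values of 11.71 and 9.87, and *Aldh18a1*, which makes the precursor of proline, had 7.76 and 6.18. *Ddit3*, the stress factor CHOP, and *Slc7a1*, a carrier of arginine and lysine, were at −1.51 and −1.38. The tRNA synthetase gene *Mars1*, which lies next to *Ddit3* on chromosome 10, was at −1.31. Further members were *Dnajb3*, *Dnajc28*, *Nfe2l1*, *Lrrc59*, *Edem2* and *Ddrgk1*, between −1.18 and −1.01. In the integrated stress response list 4 of 22 measured genes, or 18.2% beside 1.36% of all measured genes, were lower by 2-fold or more, all of them members (*Trib3*, *Mthfd2*, *Ddit3* and *Slc7a1*). In all, 15 of the 22 were below 0, and the genes that are not members lay on both sides of it. *Asns*, the asparagine synthetase, was at −0.67 and *Atf4* itself at −0.43, whereas *Atf3* was at 0.14, *Ppp1r15a*, the brake of the response, at 0.45, *Sesn2* at 0.58 and *Vldlr* at 1.04. The median of the list was −0.55, and −0.03 without scaling between the arrays. Of 20 measured cytosolic tRNA synthetases, a family picked around *Mars1*, 18 were below 0. Their median was −0.29, against 0.05 over all measured genes. Only *Mars1* was lower by 2-fold or more, beside 1.36% of all measured genes.

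The combined C/EBP-ATF site TGATGNAA, through which ATF4 acts with C/EBP partners, matched in 9 of the 113 members, or 7.96%, and in 3.12% of the measured genes. It was searched for only after the members were known. Most of these matches lay outside the amino acid group, in *Btg1b*, *Btg1c*, *Gpr132*, *Jdp2*, *Lpin2*, *Spata13* and *Tbc1d9*. *Btg1b* and *Btg1c* are near-identical, so their matches may not be separate. *Mthfd2*, *Ddit3*, *Slc7a1*, *Aldh18a1* and *Mars1* had a window but no match. In *Trib3* the match lay 15 bases after the start. In *Jdp2*, a bZIP repressor at −1.40, it began 33 bases before the start, in *Gpr132* 123 bases before and in *Spata13* 42 bases before. These stretches show the match in capitals, on the reverse strand in *Spata13*.

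*Jdp2*, chr12:85599358-85599415, plus strand: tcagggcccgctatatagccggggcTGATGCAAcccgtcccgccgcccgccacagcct
*Gpr132*, chr12:112861007-112861064, minus strand: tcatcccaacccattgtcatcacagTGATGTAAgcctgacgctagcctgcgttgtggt
*Spata13*, chr14:60732837-60732894, plus strand: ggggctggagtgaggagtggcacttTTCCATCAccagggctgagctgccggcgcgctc

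Genes of actin, adhesion and junctions made up 18 members with a median of −1.31. After *Phldb1*, *Vcl*, the gene of vinculin, which ties integrins to actin, had values of 10.08 and 8.54. *Mpp7*, a scaffold of cell junctions, had 8.30 and 6.82, and *Marcksl1*, an actin-binding substrate of protein kinase C, had 10.60 and 9.14. *Srf* itself was a member, with 13.48 and 12.35, but a second probe of it was at −0.47. A second probe of *Cnn2* was at −0.53. Others bind or shape actin filaments, namely *Lima1*, *Cnn2*, *Palld*, *Zyx* and *Fhod1*, between −1.38 and −1.06. Further members of the group were *Flrt3*, *Cldn9*, *Itgb2*, *Ceacam19*, *Fbln7*, *Dcbld2* and *Sdc1*. Not all actin genes went this way. In a list of 40 measured genes of the actin cytoskeleton linked to *Srf*, put together after the members were seen, 7 were lower by 2-fold or more, or 17.5% beside 1.36% of all measured genes, and 3 were higher. The difference was below 0 in 27 of the 40, with a median of −0.24. The higher ones were the smooth muscle genes *Cnn1*, *Actg2* and *Myl9*, at 1.81, 1.64 and 1.03. *Cnn2* thus went down beside a higher *Cnn1*, with *Cnn3* at 0.42. *Itgb2*, the shared β chain of the leukocyte integrins, had 14.67 and 13.32, while its partner chains *Itgal*, *Itgam* and *Itgax* were at 1.21, 0.61 and 0.05.

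The CArG box matched in 6 of the 113 members, or 5.31%, and in 1.64% of the measured genes. These were *Srf*, *Vcl*, *Cnn2*, *Lima1*, *Ampd3* and *Tbc1d9*, and the box was searched for only after the members were known. *Srf* held a pair of boxes, which began 82 and 62 bases before its start. In *Vcl* the box began 227 bases before the start, in *Cnn2* 56 and in *Lima1* 47. The same 10 letters fill the box of the latter 3 genes, in capitals below.

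*Srf*, chr17:46556190-46556269, minus strand: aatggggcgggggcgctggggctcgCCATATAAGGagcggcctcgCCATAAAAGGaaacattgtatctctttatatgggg
*Vcl*, chr14:20929148-20929205, plus strand: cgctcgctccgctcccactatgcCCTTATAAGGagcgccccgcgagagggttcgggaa
*Cnn2*, chr10:79988519-79988578, plus strand: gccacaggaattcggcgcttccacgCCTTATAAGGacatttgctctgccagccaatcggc
*Lima1*, chr15:99820162-99820221, minus strand: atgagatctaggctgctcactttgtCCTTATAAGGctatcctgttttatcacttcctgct

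Of the other motifs searched, an AP-1 site, TGANTCA, matched in 10.6% of the members and 7.05% of the measured genes, a TATA box, TATAAA on the forward strand, in 10.6% and 6.94%, an E-box, CACGTG, in 11.5% and 11%, and an ETS core, CCGGAAGT, in 5.31% and 8.13%. A CCAAT box matched in 43.4% and 42.7%, the interferon response element core in 5.31% and 3.94%, and the PU.1 core GAGGAAGT in 3.54% and 3.71%. The cyclic AMP response element matched in 2.65% and 3.3%, and its shorter core TGACG in 31% and 32.3%. The first list of motifs also held a single SRF site, stricter than the CArG box added later. Its C/EBP site, TTGCGCAA, is a different site from the C/EBP-ATF site added later. The SRF site and the C/EBP site matched in 0 of the 113 members and in 0.0539% and 0.315% of the measured genes. The median GC content was 61% in the windows of members and 59.3% in all windows.

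**Figure D4:**
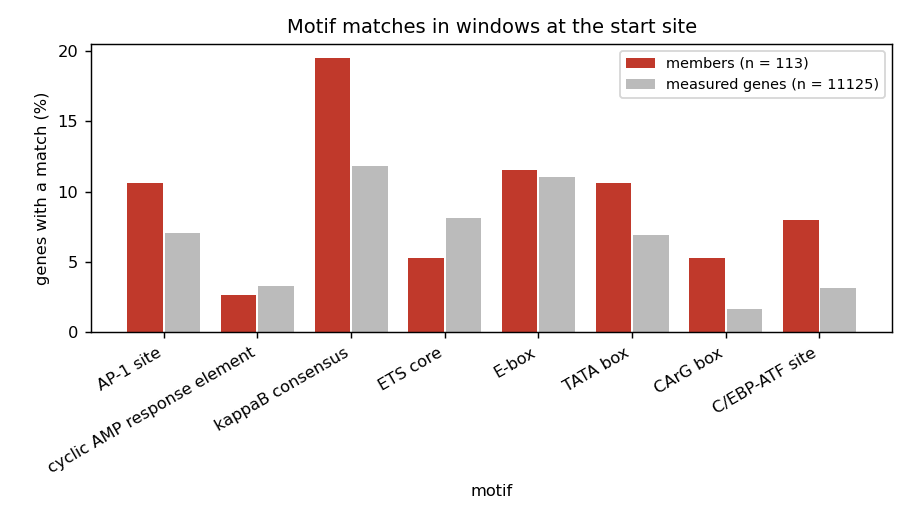
Bars give the percentage of genes with at least 1 match in the windows at the start site, for 113 members (red) and 11125 measured genes (grey), with 1 pair of bars for each of 8 of the motifs searched; the CCAAT box, at 43.4% of the members, and 5 others are not drawn. The kappaB consensus is matched in 19.5% of the members, and the ETS core less often among them than among the measured genes.

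The 7 G-protein coupled receptors among the members had a median of −1.44. *S1pr1*, a receptor of sphingosine 1-phosphate, had values of 11.45 and 9.58. *Gpr132*, a receptor of lysolipids and other lipid metabolites, had 13.31 and 11.87. *Adora2a*, an adenosine receptor that dampens inflammation, had 10.503 and 8.93. *Ffar4*, *Ptger4* and *Adora2b* had differences of −1.41, −1.36 and −1.17. Related receptors that were measured but are not members had to lie above −1 by the rule. *S1pr2*, *S1pr3* and *S1pr5* lay between −0.31 and 0.12, *Adora3* at 0.19 and *Ptger2* at −0.29. Of 82 measured receptors in a wider list, 7, or 8.54% beside 1.36% of all measured genes, were lower by 2-fold or more. In the same list 3 were higher by 2-fold or more, and the median was 0.02.

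Small GTPases and their regulators numbered 7. *Ralgds*, an exchange factor for Ral, had 14.47 and 12.65. *Rnd1*, which loosens actin fibres, had 9.73 and 8.17, against differences of −0.43 for *Rnd2* and 0.00 for *Rnd3*. *Rrad* and *Gem*, which both inhibit calcium channels, were at −1.48 and −1.17, and *Rem1* of the same family was at −0.56. *Rassf4* and *Arl5c* were at −1.12 and −1.01.

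Leukocyte surface and antigen receptor signalling held 18 members with a median of −1.21. *Icosl* was followed by *H2-Q8*, a class I gene, with 11.16 and 9.64, *Ms4a1*, the B cell antigen CD20, with 8.83 and 7.33, and the adaptor *Scimp* with 11.10 and 9.72. Adaptors best known from lymphocytes were among them. *Lat*, *Lcp2* and *Grap* were at −1.23, −1.30 and −1.09, while *Lat2*, the form typical of myeloid cells, was at −0.45. *Fgr*, a Src-family kinase, was at −1.18, and *Lyn* of the same family was at 0.16. *Tap1*, the peptide transporter for class I antigens, was the only member printed 10 times. Its unscaled signals ran from 199.5 to 225 over 10 vehicle spots and from 131 to 158 over 10 IR-61 spots. These spots are repeats within 1 array per treatment. *Tap1* was chosen for its difference, so the gap between the spots adds no support. Its deposited values were 8.09 and 6.99. Further members were *Ly6d*, *Fcmr*, *Sh3kbp1*, *Ptpn7*, *H2-M9*, *Slamf8*, *Fcna*, *Ifitm6* and *Prkcd*. *H2-Q8* and *H2-M9* belong to a family of near-identical genes, and their probes may read more than 1 of them. Of 6 B cell markers on the array only 3 were measured, and all 3 were below 0. *Ms4a1* and *Cd79b* were lower by 2-fold or more, beside 1.36% of all measured genes. *Cd79b* was left out by symbol. None of 5 T cell markers measured passed 2-fold in either direction.

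Transcription and chromatin was the largest group, with 19 members and a median of −1.32. After *H1f2*, *Hivep3*, a zinc finger protein that binds kappaB-like sites, had values of 8.05 and 6.17. *Ets2*, a factor downstream of growth factor signalling, had 10.96 and 9.23, and *Bcor*, the corepressor of BCL6, had 11.66 and 9.93. The group held several genes known for quick induction by stimuli, namely *Ier2*, *Btg2*, *Klf10* and *Nr4a1*, between −1.60 and −1.01. *Btg1* and *Btg3* were at −0.08 and −0.05 beside *Btg2*. *Btg1b* and *Btg1c* are adjacent and near-identical on the X chromosome and may share signal. The remaining members were *Ell2*, *Rest*, *Jdp2*, *Vgll4*, *Ccnl1*, *Pspc1*, *Rarg*, *Spib* and *Ints12*. None of 320 measured C2H2 zinc finger genes of the Zfp series was lower by 2-fold or more, beside 1.36% of all measured genes, and 3 were higher.

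Lipid, sugar and nucleotide metabolism held 15 members with a median of −1.21. *Arrdc3*, an α-arrestin that marks receptors for degradation, had 12.33 and 10.33, and *Txnip*, the α-arrestin that limits glucose uptake, had 13.26 and 11.85. *Arrdc4* was at −0.88 and *Arrdc1* at 0.28. *Aldh1a3*, which makes retinoic acid, had 7.95 and 6.41, *Ampd3*, an AMP deaminase, 8.57 and 7.13, and *Angptl4*, an inhibitor of lipoprotein lipase, 13.18 and 11.74. *Scd1*, a fatty acid desaturase, was at −1.42, with *Scd2* at −0.89, *Scd4* at −0.55 and *Scd3* at 0.19. The others were *Gpcpd1*, *Lpcat3*, *Pfkp*, *Lpin2*, *Cyb5r3*, *Vnn3*, *Gpat3*, *Galnt1* and *Aig1*. None of 24 measured sterol synthesis genes was lower or higher by 2-fold or more, beside 1.36% lower and 1.37% higher of all measured genes. A count of 0 in so few genes is near these shares. *Lss*, the lanosterol synthase of that pathway, was left out by symbol and is not on that list, and its difference was −1.249.

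Vesicle traffic and autophagy held 7 members. *Ehd1*, an ATPase of endosome recycling, had 13.91 and 12.34, whereas *Ehd2*, *Ehd3* and *Ehd4* were at 0.36, 0.60 and 0.76. *Stx11*, a SNARE needed for granule release, had 9.97 and 8.46, *Rab20*, a GTPase of phagosomes, 11.79 and 10.38, and *Tbc1d9* 9.95 and 8.76. The autophagy receptors *Sqstm1* and *Tax1bp1* were both members at −1.104 and −1.106, with *Optn* at −0.73 and *Nbr1* at 0.05. *Rab7*, the GTPase of late endosomes, was at −1.19. Transporters and channels held 9 members, led by *Slc31a2*, a copper transport protein, with 13.12 and 11.31. *Slc6a12* had 10.11 and 8.66, *Lrrc8c*, a subunit of volume-regulated anion channels, 8.78 and 7.48, and the potassium channel gene *Kcnn4* 11.38 and 10.11. The remaining ones were *Slc2a6*, *Mfsd7a*, *Slc29a3*, *Slc22a14* and *P2rx5*, between −1.24 and −1.04. Of 254 measured solute carriers, 6 were lower and 8 higher by 2-fold or more. The lower ones were 2.36% of them, beside 1.36% of all measured genes.

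**Figure D5:**
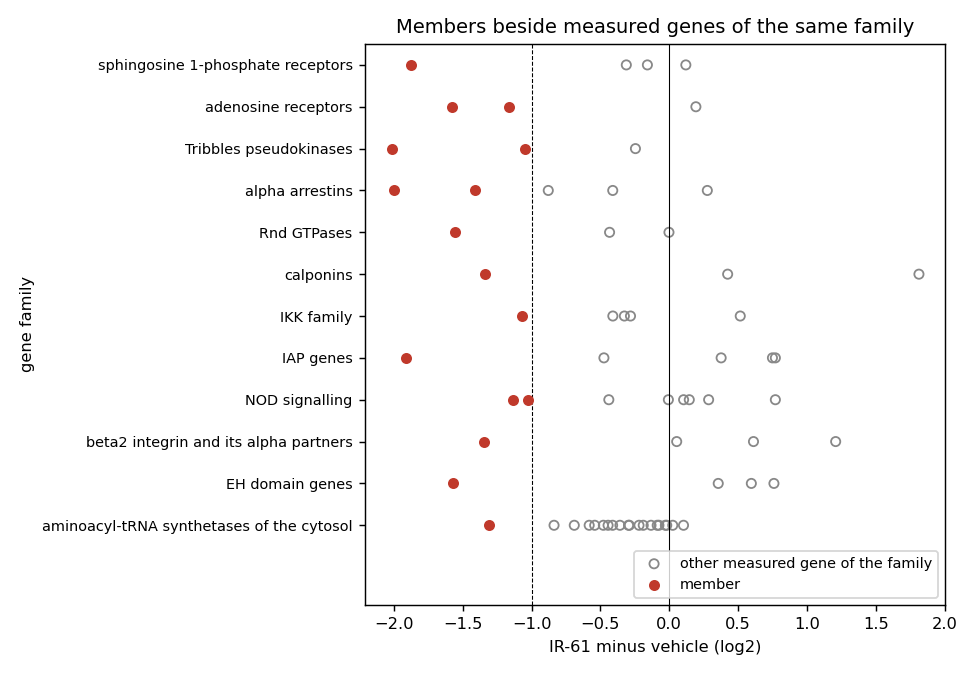
Differences (IR-61 minus vehicle, log2) of members (filled) and of other measured genes of the same family or complex (open), 1 row per family, with a dashed line at the limit of −1. The members were chosen below that line. In the EH domain row the 3 relatives of *Ehd1* lie between 0.36 and 0.76, and the relatives of *Birc3* lie on both sides of 0.

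Of the secreted factors, *Wnt8b* had values of 8.09 and 6.33, *Igfbp3*, a carrier of insulin-like growth factors, 8.53 and 7.23, *Pdgfb*, a platelet-derived growth factor chain, 11.31 and 10.26, and *Bmp8b* 7.67 and 6.62. Of the DNA repair and replication genes, *Faap24* had 8.44 and 7.11, *Nbn*, part of the complex that senses double-strand breaks, 10.17 and 9.04, and *Pola2*, a subunit of DNA polymerase α, 7.30 and 6.28. *Wnt8b* was lower by 3.38-fold and the other 6 by less than 3-fold. Among members of other or unassigned role, *Abtb2* had 9.62 and 8.02, *Gm5414* 7.82 and 6.25, *Plp2* 12.12 and 10.80, and *Akap17b* 8.27 and 6.95. The rest were *Plk3*, *Tdpoz7*, *Phlda1*, *Rnh1*, *Upk3b*, *Mvp*, *Trib1*, *Wdr83*, *Fibp*, *Tmem202*, *Serpinb1c* and *Utp14a*, between −1.24 and −1.002. *Trib1* was thus a member together with *Trib3*, and *Trib2* was at −0.25.

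For 112 members the array carried 1 probe, so their value rests on that probe alone. Of the other probes of the remaining members, 35 on 33 genes were well above background on both arrays. Of these, 16 were lower by 2-fold or more, 16 lay between −1 and 0, and 3 were at 0 or above, with a median of −0.95. Second probes of *Ralgds*, *Ehd1*, *Gem*, *Rnd1* and *Tnip3* were at −2.08, −1.97, −1.88, −1.71 and −1.70. Those of *Bcor*, *Sh3kbp1* and *Fbln7* were at 0.18, 0.17 and 0.28, and that of *Wnt8b* at −0.01. Those of *Pfkp*, *Lrrc59*, *Akap17b*, *Slc29a3* and *Adora2b* lay between −0.25 and −0.10.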

How the data were processed

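Gene expression was measured in RAW264.7 cells on 2 single-colour Agilent arrays, 1 for vehicle and 1 for IR-61. The dose comes from a legend of the study. The authors deposited spot intensity values from Agilent Feature Extraction (version 11.0.0.1 in the submitters' notes, with other versions in the file headers and the methods), background-subtracted and not scaled between arrays, and a table of log2 values per probe. How the deposited log2 values were made is not given in the sources used here. Both columns had a median of 7.15 and quartiles of 4.59 and 10.66, as quantile normalization gives. These log2 values were used for all results unless said otherwise, because the rule for the members uses them. Background flags and the spread between spots came from the intensity files.

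Of 39429 probes, 27234 were named by matching RefSeq accessions, without version, to a table of assembly GRCm38.p6, giving 20659 symbols. The error of a difference was taken from those of the 399 probes printed 10 times that were well above background on both arrays. It was the SD between spots of such probes within 1 log2 unit of the member's signal. No spot was saturated, and 77.6% and 81.2% of the probes were well above background with vehicle and IR-61. The number of arrays limits the precision.

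The members and gene lists were chosen with earlier results of these data known, and so were the role groups and family members, so they support nothing on their own. Genes given with values were chosen from the 15 largest falls, up to 4 of each role group, members printed 10 times, members with another probe at 0 or above and the genes beside the limits. Others named with values were singled out after their values were seen. A few members that this rule picks, 1 of the 5 largest falls among them, are counted but not reported here by name, so the values given are not an unbroken ranking. Other scalings (75th percentile, median, none, 75th percentile over detected probes, quantile, loess), normexp with offset 50 on the median signal, the mean over probes, outlier spots kept, and other limits were tried. The steps were tested on simulated data. Software was limma 3.58.1 under R 4.3.3, and numpy 2.4.6, pandas 2.3.3 and matplotlib 3.10.9 under Python 3.11.15.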

Additional observations from a re-analysis of the deposited data

How the results depend on the processing

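The scaling between the arrays set how many genes passed the limit. Without scaling the median of all measured genes moved to 0.57, 31 genes met the rule, 30 of them among the 147, and 51 genes in all lay at −1 or less, or 3.28% of those past the limit in either direction against 49.9% on the deposited values. The median over the 147 was then −0.73, 4 NF-κB-responsive genes and 0 interferon-responsive genes were lower by 2-fold or more, and the list medians were 0.05 for NF-κB-responsive genes, −0.027 for the integrated stress response, 0.52 for interferon-responsive genes and 0.25 for sterol synthesis. With median scaling, 176 genes met the rule and 59.5% of the genes past the limit were lower. With normexp, 100 met it, 92 of them shared, the median over the 147 was −1.09, that of the integrated stress response −0.28, and 0 interferon-responsive genes lay at −1 or less. With the mean over probes, 2 interferon-responsive genes and 1 sterol synthesis gene did. Without a minimum level 234 genes met the rule. At 3-fold 24 did, of 43 lower in all, and at −0.8, 328 did, of 378. Scaling by the 75th percentile gave 136, with 131 shared. Under the other settings between 116 and 184 genes met the rule. Of 468 values of 52 named members over 9 settings, 380 stayed within the expected SD and 88 moved, 85 of them toward 0. None reached 0, and 46 lay above −1, 27 of them without scaling. What caused these shifts was not tested. A minimum of 8 on the vehicle array, chosen after seeing the data, left 128. No paired analysis was possible because vehicle and IR-61 were each represented by a single array. Dim members are the least certain, since the SD between spots was 0.27 under a log2 signal of 8 with vehicle and 0.06 from 12 upward.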

Other observations

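Members lay on 20 chromosomes, and a few were neighbours in the order of protein-coding genes. *Ddit3* and *Mars1* on chromosome 10, *Scd1* and *Wnt8b* on chromosome 19, and *Btg1b* and *Btg1c* on the X chromosome were adjacent. *Nbn* and *Ripk2* on chromosome 4 had 1 gene between them, and *Bcl3* and *Ceacam19* on chromosome 7 had 2. The median gene span was 18.9 kb for members and 20.2 kb for all measured genes. In a list of RING and F-box ubiquitin ligases and ubiquitin proteases, 220 genes were measured. None of them was lower by 2-fold or more, beside 1.36% of all measured genes, and 4 were higher. That list does not hold every ubiquitin ligase, since the members *Birc3* and *Neurl3* are not on it.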
